A study of Bos taurus with 33 samples.

Results

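A set of 8 bovine chromatin transcripts was followed through oocytes and the cumulus cells (CC) that enclose them. They were found by gene symbol from a request for 7 genes, the linker histones H1FOO and H1F0, the histone chaperones NPM2 and NASP, and the histone variants H2AFZ, H3F3A and H3F3B. The symbols gave 8 Ensembl entries among the 17543 listed in an oocyte table and a CC table. H1FOO (ENSBTAG00000001812) and NPM2 (ENSBTAG00000046918) had an entry in the oocyte table and were not analysed in CC. NASP (ENSBTAG00000015346), H1F0 (ENSBTAG00000038439) and H2AFZ (ENSBTAG00000004428) had entries in both tables. The entry ENSBTAG00000016975 carried the symbol H2AFZ in the CC table and H2AFV in the oocyte table, and is called H2AFV here. H3F3A matched ENSBTAG00000024561 in both tables and, in the oocyte table, also ENSBTAG00000024909, which is described as a histone H3.3 and is called the second H3F3A entry. The symbol H3F3B matched no entry, so H3F3B was not analysed. All 8 entries in oocytes and all 6 in CC passed the filter of at least 5 CPM (reads of the transcript scaled to a common library total) in at least 4 oocyte or 5 CC pools.

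DNA in the nucleus is wound around core histones and held together by a linker histone. H1FOO is a linker histone of oocytes, and somatic cells use other H1 proteins, among them H1F0, which is known from cells that have stopped dividing. Histone chaperones carry histones before they reach DNA: NPM2 stores histones in the egg and takes part in remodelling the sperm nucleus after fertilization, and NASP binds H3 and H4 and linker histones. H2A.Z, encoded by H2AFZ and H2AFV, and H3.3, encoded by H3F3A and H3F3B, are variants made throughout the cell cycle, so that they can replace the canonical histones when no DNA is replicated. The oocyte of a preovulatory follicle is largely silent in transcription and carries the transcripts that the early embryo will use.

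The cells came from suckled postpartum beef cows that all received gonadotropin-releasing hormone (GnRH) on day -9 and prostaglandin F2α on day -2. Cows of the small (follicles of at most 11.7 mm) and large (at least 12.7 mm) classifications showed no estrus and received a second GnRH injection (GnRH2) on day 0, whereas cows of the spontaneous classification (11.7 to 14.0 mm) showed estrus and received no GnRH2. Complexes were aspirated about 23 h after GnRH2 or the onset of estrus according to the protocol, and 20 h according to the stage label. Each library came from a pool of 4 oocytes or from the CC of 4 complexes, with 6 small, 6 large and 4 spontaneous oocyte pools and 6, 6 and 5 CC pools. Estrus, GnRH2 and follicle diameter therefore cannot be told apart in a comparison with the spontaneous classification.

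Reads on genes numbered 7664375 to 17934916 per oocyte pool and 1911600 to 5772431 per CC pool. For a transcript with no read, counting error alone allows 3 reads, or 0.167 to 0.391 CPM in an oocyte pool and 0.52 to 1.57 CPM in a CC pool. The 10 oocyte markers summed to 9091 to 13318 CPM in oocyte pools, and the 5 of them listed for CC to 0 to 6.76 CPM in CC pools. The 11 cumulus and granulosa markers summed to 10796 to 32952 CPM in CC pools (median 20691), but also to 534 to 4044 CPM (median 1331) in oocyte pools. VCAN made up most of this sum, with a median of 15808 CPM in CC and 863 CPM in oocyte pools. Of the 11 markers, 6 were higher in every CC pool and 5 overlapped. HAS2 went the other way, with medians of 186 CPM in oocyte and 50.5 CPM in CC pools. The oocyte pools therefore held transcripts of cumulus markers in every class, from 758 to 4044 CPM in small, 534 to 3751 in large and 618 to 2658 in spontaneous pools. White blood cell markers summed to 27.3 to 187 CPM in CC and 0 to 36.9 CPM in oocyte pools. Endothelium markers summed to 7.38 to 68.9 CPM in CC and 93.5 to 153 CPM in oocyte pools. Of the theca markers, INSL3 had 108 to 1162 CPM in CC pools and CYP17A1 0 to 0.781 CPM. The part of other cells in the CC levels was not tested. The 2 tables were scaled separately, and mitochondrially encoded genes took a mean of 1.64% of the CPM in oocytes and 21.4% in CC. Levels in the 2 cell types are therefore set side by side without a test.

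The levels of these chromatin transcripts are set side by side in oocytes and CC. NASP was the 1 of 6 transcripts in both tables that was higher in every oocyte pool than in every CC pool. Of the 14980 transcripts listed in both, 17.5% were, so 1 of 6 was near that share. H2AFZ, H2AFV and H3F3A, 3 of 6, were higher in every CC pool, as were 10.6% of all transcripts. The 6 had passed the filter and the 14980 were not filtered, so these shares are not of transcripts of like level. H1F0 and the second H3F3A entry overlapped between the cell types. H1FOO and NPM2 ranged from 192 to 564 CPM and from 127 to 395 CPM over the 16 oocyte pools. In these bulk pools, fewer cells of a type and less RNA per cell cannot be told apart.

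**Figure D1:**
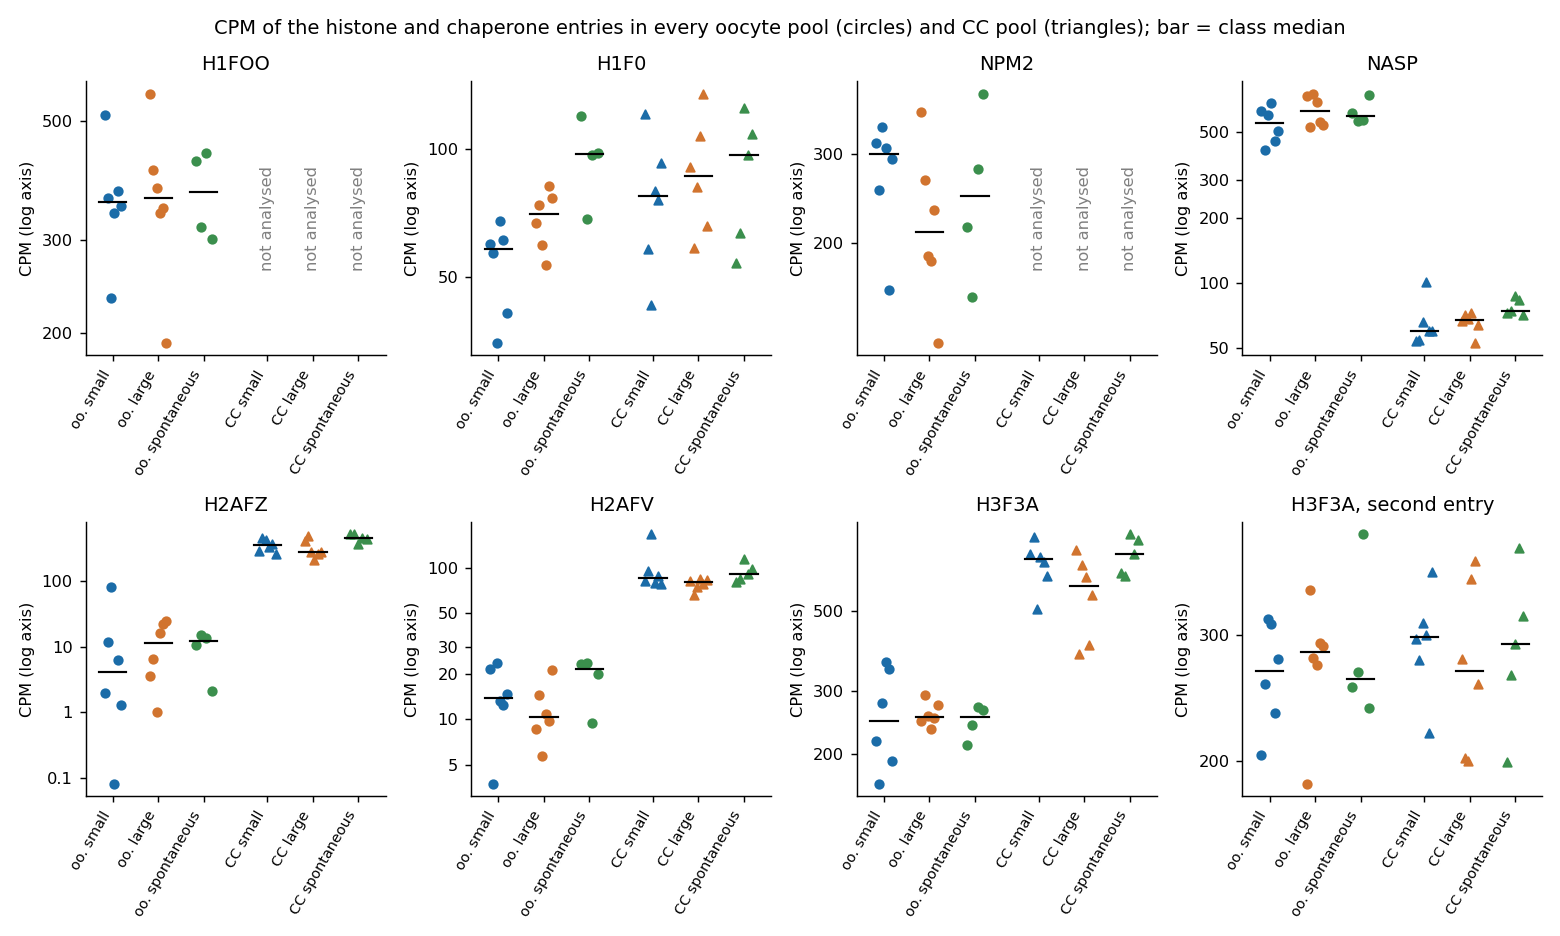
CPM of each of the 8 transcripts on a logarithmic axis in every oocyte pool (circles) and CC pool (triangles) by follicle classification, with a bar at the class median. NASP stood higher in all oocyte pools and H2AFZ, H2AFV and H3F3A in all CC pools, while the classes within a cell type overlapped in 41 of 42 comparisons.

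The median NASP level was 583 CPM in oocytes (414 to 754) and 68.2 CPM in CC (52.5 to 101), an 8.55-fold difference that ranged from 6.91 to 8.79-fold when mitochondrially encoded genes were left out or CPM were recomputed over transcripts in both tables. H2AFZ had a median of 8.61 CPM in oocytes (0.0818 to 82.1) and 368 CPM in CC (207 to 518), 42.7-fold higher in CC and 56.8 and 41.5-fold in turn under the same rescalings. H2AFV, its paralog, had a median of 13.9 CPM in oocytes (3.77 to 23.7) and 82.4 CPM in CC (65.8 to 166), 5.94-fold higher in CC. Both entries for H2A.Z were thus lower in oocytes, by unequal amounts. H3F3A had a median of 253 CPM in oocytes (165 to 362) and 672 CPM in CC (380 to 820), 2.66-fold higher in CC. The second H3F3A entry had 275 CPM in oocytes (186 to 414) and 291 CPM in CC (200 to 396), and H1F0 had 67.3 CPM (34.8 to 120) and 81.5 CPM (42.9 to 135). Which transcripts overlapped between the cell types was the same under both rescalings and with each pool left out.

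The linker histones of the oocyte showed little difference between classes in H1FOO and a wider one in H1F0. H1FOO ranged from 233 to 514 CPM in small (median 353) and from 192 to 564 CPM in large oocyte pools (median 359), and was 421, 317, 436 and 300 CPM in the 4 spontaneous pools. The 3 classes overlapped almost fully. Its log2 fold changes on the log2(CPM + 1) scale, always the second class minus the first, were 0.0052 from small to large (95% confidence interval -0.39 to 0.40), 0.051 from small to spontaneous (-0.34 to 0.44) and 0.046 from large to spontaneous (-0.38 to 0.47).

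H1F0 ranged from 34.8 to 67.7 CPM in small oocyte pools (median 58.2) and from 53.1 to 81.8 CPM in large pools (median 70.4). It was 120, 68.5, 96.9 and 98.1 CPM in the 4 spontaneous pools. The lowest spontaneous pool, at 68.5 CPM, thus lay just above the highest small pool, at 67.7 CPM, and small and large pools overlapped. Mean H1F0 was 53.5 ± 12.7 CPM in small (SD, n = 6), 68.6 ± 10.9 in large (n = 6) and 95.8 ± 21.0 in spontaneous oocyte pools (n = 4). From small to spontaneous the log2 fold change was 0.84 (SE 0.30, limma p = 0.00933, adjusted p = 0.987, exact permutation p = 0.00476). The limma p was at most 0.01, as for 0.943% of all transcripts with all pools. H1F0 did not meet the study's further requirement of passing without small replicate 3, the pool of fewest reads, where the change was 0.72 and the limma p rose to 0.0270. The exact permutation p is the smallest that 6 against 4 pools allow, and 0.476% of all transcripts had no overlap with the spontaneous pools higher. From small to large the change was 0.37 (SE 0.25, limma p = 0.148, exact permutation p = 0.0584), and 0.46 between large and spontaneous (SE 0.25, limma p = 0.0793, exact permutation p = 0.0238).

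In CC, where H1F0 ranged from 42.9 to 121 CPM in small (median 77.6) and 58.4 to 135 CPM in large pools (median 86.2), the spontaneous pools had 53.9, 63.2, 125, 96.5 and 108 CPM. The 3 CC classes overlapped, and the log2 fold changes of H1F0 in CC were 0.21, 0.19 and -0.019 for small to large, small to spontaneous and large to spontaneous. Whether the change from small to spontaneous differed between oocytes and CC was not tested.

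Because H1FOO and H1F0 were measured in the same pools, H1FOO was also taken as a share of the CPM of H1FOO and H1F0, which does not depend on how a pool was scaled. CPM take no account of transcript length, so this share is of reads and not of transcript copies. It also leaves out other linker histones. Among these, HIST1H1A had a median of 2608 CPM in oocytes, against 353 CPM for H1FOO. H1FOO made up 86.9 ± 2.38% in small (SD, n = 6, range 83.3 to 89.6), 83.2 ± 6.38% in large (n = 6, range 71.5 to 89.4) and 79.3 ± 3.27% in spontaneous oocyte pools (n = 4, range 75.4 to 82.2). Small and spontaneous pools did not overlap, and large pools overlapped both. The share differed by -7.60 percentage points from small to spontaneous pools in an exact permutation test, two-sided (p = 0.00476, the smallest possible, adjusted over 3 tests p = 0.0143). It uses the same H1F0 values as above and is not a separate line of data. The differences from small to large (-3.76 points, exact permutation p = 0.212, adjusted p = 0.305) and between large and spontaneous (-3.84 points, exact permutation p = 0.305, adjusted p = 0.305) did not pass.

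**Figure D2:**
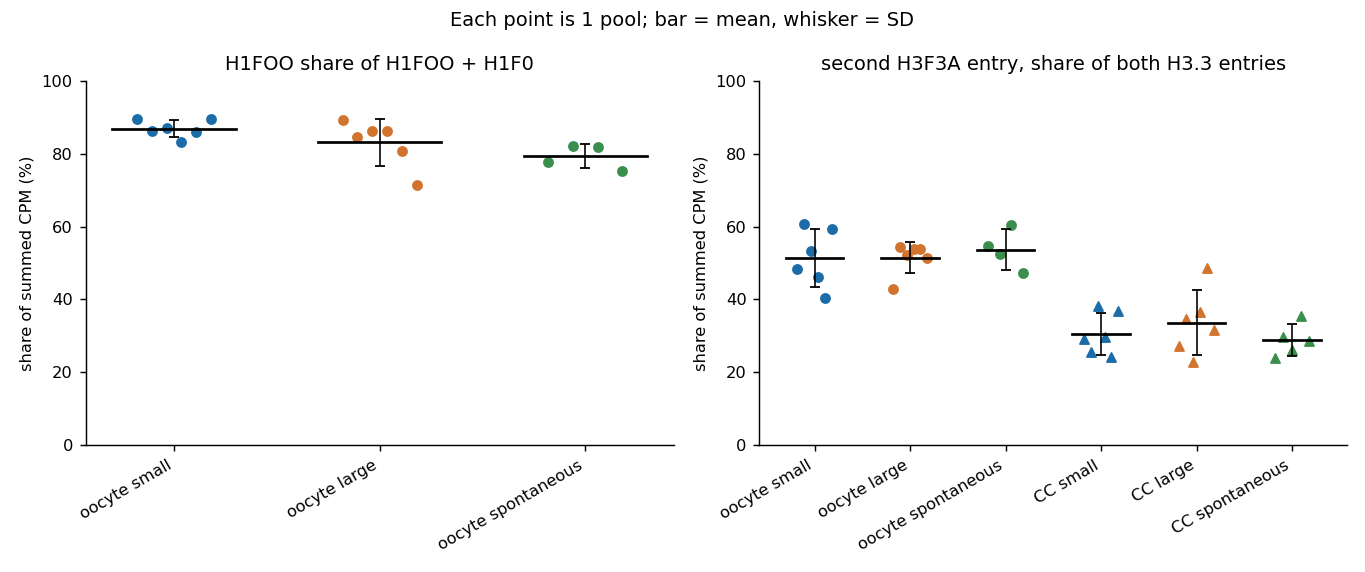
Left, H1FOO as a percent of the CPM of H1FOO and H1F0 in oocyte pools, and right, the second H3F3A entry as a percent of the CPM of both H3.3 entries in oocyte and CC pools. Points are pools, bars class means and whiskers SD: the H1FOO share was 86.9% in small and 79.3% in spontaneous pools, and the H3.3 share centred on 52.0% in oocytes and 31.1% in CC.

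The chaperones NPM2 and NASP did not pass the threshold in any class comparison. NPM2 ranged from 162 to 340 CPM in small (median 301) and 127 to 364 CPM in large oocyte pools (median 211), and was 216, 157, 280 and 395 CPM in spontaneous pools. The 3 classes overlapped, with both the lowest and the second highest pool in the large class. The log2 fold change of NPM2 from small to large was -0.33 (SE 0.21, limma p = 0.122, exact permutation p = 0.249, 95% interval -0.76 to 0.094), the other two being -0.13 and 0.20.

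NASP had a coefficient of variation of 17.0% between oocyte pools. Of the retained transcripts, which were not matched to it in level, 6.14% had a lower one (median of all 45.9%). NASP ranged from 414 to 679 CPM in small (median 550) and 527 to 754 CPM in large oocyte pools (median 624). In spontaneous pools it was 612, 563, 570 and 739 CPM. The log2 fold changes were 0.22, 0.20 and -0.021 in oocytes, in the order used above, and 0.027, 0.26 and 0.24 in CC. In CC, NASP ranged from 53.7 to 101 CPM in small (median 59.7) and 52.5 to 72.0 CPM in large pools (median 67.5), against 72.3, 73.7, 86.9, 83.3 and 70.8 CPM in spontaneous pools. The spontaneous CC pools overlapped narrowly with the large ones, at 70.8 against 72.0 CPM (exact permutation p = 0.0108, limma p = 0.142).

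H2AFZ was the most variable of the 8 transcripts in oocytes, while in CC its coefficient of variation, 26.7%, was below the median of 33.9% over retained transcripts. In small oocyte pools it was 1.95, 11.6, 82.1, 0.0818, 6.31 and 1.29 CPM, so that replicate 4 held 1 read of it and replicate 3 held 629. In large pools it was 3.64, 6.59, 1.01, 16.2, 22.3 and 24.9 CPM and in spontaneous pools 10.6, 15.1, 13.6 and 2.12 CPM. The classes overlapped, and the spread within the small class exceeded any difference between classes. The coefficient of variation of H2AFZ over oocyte pools was 144%. Of the retained transcripts, again not matched in level, 97.7% had a lower one. The log2 fold changes of 0.62 (SE 0.82), 0.64 (SE 0.90) and 0.016 (SE 0.73) could not separate a doubling from no change, as their intervals ran from -1.05 to 2.29, -1.21 to 2.48 and -1.48 to 1.51. Without small replicate 3 the first 2 were 1.37 and 1.39, and without small replicate 4 they were 0.12 and 0.13, so single pools set their size.

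The H2AFZ level in an oocyte pool moved with the cumulus markers of that pool. Over the 16 oocyte pools, H2AFZ CPM correlated with the summed cumulus marker CPM at Pearson r = 0.76 (permutation p = 5e-05, adjusted over 14 such relations p = 0.0007) and Spearman rho = 0.80 (permutation p = 0.00038, adjusted p = 0.00532). Within classes r was 0.95 in small and 0.77 in large pools (n = 6 each), and the spontaneous class held too few pools. Without the 2 pools farthest from the median marker sum r was 0.69 (permutation p = 0.0064, adjusted p = 0.0896), so that passing the adjusted threshold rested on those pools. As a percent of the summed cumulus markers, H2AFZ was 0.0108 to 2.03% in oocyte pools (median 0.555) and 0.700 to 3.86% in CC pools (median 1.80). The marker sum was set mainly by VCAN, so these values describe that transcript more than the markers as a set. The part of CC transcripts in the oocyte level of H2AFZ was not tested beyond these values.

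For the other 7 transcripts in oocytes the relation did not pass. The strongest of them was H1FOO with r = -0.55 (permutation p = 0.0276, adjusted p = 0.193), which became -0.14 without the 2 farthest pools. H2AFV had r = 0.25 (permutation p = 0.339, adjusted p = 0.643) and was 0.182 to 3.21% of the cumulus marker sum in oocytes (median 1.13) against 0.250 to 1.54% in CC (median 0.389). NASP was 14.3 to 137% of that sum in oocytes and 0.172 to 0.611% in CC, and H3F3A 6.85 to 47.7% against 1.32 to 5.69%. The ranges of NASP, H3F3A, the second H3F3A entry and H1F0 in oocytes lay wholly above those in CC, whereas those of both H2A.Z entries overlapped. The marker sum itself was far larger in CC (median 20691 against 1331 CPM). A transcript of equal CPM in both cell types is therefore a higher percent of it in oocytes.

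**Figure D3:**
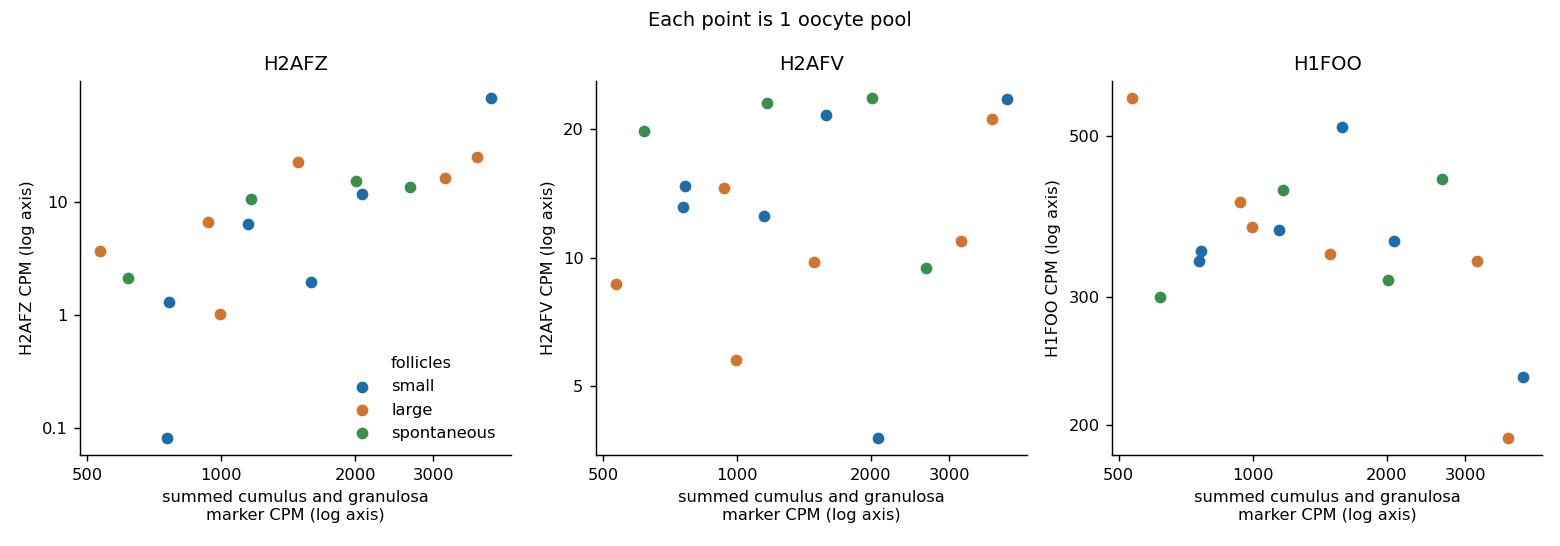
CPM of H2AFZ, H2AFV and H1FOO against the summed CPM of 11 cumulus and granulosa markers on logarithmic axes, each point 1 of 16 oocyte pools coloured by follicle classification. H2AFZ was higher in pools with more cumulus marker CPM (r = 0.76 on linear CPM), with the lowest pool at 0.0818 CPM and the highest at 82.1 CPM, and no such relation passed for H2AFV or H1FOO.

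In CC, H2AFZ was the 1 of 6 transcripts that met the threshold in any comparison, from large to spontaneous. Small CC pools ranged from 255 to 454 CPM (median 349) and large pools from 207 to 483 CPM (median 278), and the spontaneous pools had 515, 518, 364, 458 and 442 CPM. The other 3 spontaneous pools lay between 364 and 458 CPM, within the range of the large pools, so the classes overlapped. Mean H2AFZ was 318 ± 104 CPM in large (SD, n = 6) and 459 ± 63.1 CPM in spontaneous pools (n = 5), a log2 fold change of 0.58 (SE 0.20, limma p = 0.00971, adjusted p = 0.567, exact permutation p = 0.0346). At this threshold 1.66% of the 9712 transcripts were called in the same comparison, 1.45% with spontaneous higher, and their median log2 fold change was 0.11. The call was lost with median-of-ratios scaling (log2 fold change 0.48), without mitochondrially encoded genes (0.52), in edgeR and in DESeq2 (0.42 each), and without 8 of the 11 pools in turn. Left out singly, the 11 pools gave log2 fold changes from 0.47 to 0.71, all positive. From small to spontaneous the change was 0.40 (limma p = 0.0378, exact permutation p = 0.0411), against a median of 0.16 for all transcripts, and from small to large -0.18.

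H2AFV, the other H2A.Z gene, ranged in oocytes from 3.77 to 23.6 CPM in small (median 13.9) and 5.75 to 21.1 CPM in large pools (median 10.4), and was 23.1, 23.7, 9.48 and 19.8 CPM in spontaneous pools. In CC it ranged from 78.5 to 166 CPM in small (median 85.2) and 65.8 to 84.9 CPM in large pools (median 80.0), and was 80.2, 83.9, 115, 91.1 and 97.9 CPM in spontaneous pools. Classes overlapped in both cell types, and the log2 fold changes were -0.24, 0.42 and 0.67 in oocytes (SE 0.50 to 0.57) and -0.28, -0.025 and 0.25 in CC (SE 0.15 to 0.20). H2AFZ made up 70.9 to 88.0% of the CPM of the 2 H2A.Z entries in CC (median 80.5) and 0.617 to 77.7% in oocytes (median 32.5). The balance of the 2 entries therefore varied between oocyte pools far more than between CC pools, a description that includes the pools with more cumulus marker CPM.

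The H3.3 entries differed between oocytes and CC in their balance and not detectably between classes. H3F3A ranged in oocytes from 165 to 362 CPM in small (median 247) and 234 to 291 CPM in large pools (median 253), and was 211, 241, 270 and 265 CPM in spontaneous pools. The second H3F3A entry ranged from 204 to 316 CPM in small (median 267) and 186 to 346 CPM in large pools (median 284), and was 254, 266, 414 and 237 CPM in spontaneous pools. The log2 fold changes of both entries in oocytes lay between -0.071 and 0.12, with intervals within -0.46 and 0.52.

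In CC, H3F3A ranged from 506 to 805 CPM in small (median 698) and 380 to 743 CPM in large pools (median 587), and was 638, 628, 820, 720 and 791 CPM in spontaneous pools. Its log2 fold change from large to spontaneous was 0.39 (SE 0.18, limma p = 0.0494, exact permutation p = 0.0693, 95% interval 0.0011 to 0.78), above the threshold of 0.01, and the classes overlapped. The second H3F3A entry in CC ranged from 219 to 367 CPM in small (median 298) and 200 to 380 CPM in large pools (median 267), against 200, 264, 291, 396 and 318 CPM in spontaneous pools, with log2 fold changes from -0.11 to 0.084.

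The second H3F3A entry made up 52.0 ± 5.85% of the CPM of the 2 H3.3 entries in oocyte pools (SD, n = 16, range 40.3 to 60.8) and 31.1 ± 6.62% in CC pools (n = 17, range 22.9 to 48.5). The share was 20.9 percentage points higher in oocytes (two-sided permutation test, p = 1e-05, the smallest that the resamples can give, adjusted over 7 tests p = 7e-05), although the ranges overlapped. That test takes pools as independent, whereas the CC pools were made from the cells around the same oocytes. Over the 12 same-numbered pairs of small and large pools, whose numbers are not stated to mark the same complexes, the share was higher in oocytes in 12, by 19.3 ± 7.48 points (SD, exact sign-flip permutation p = 0.000488, adjusted p = 0.00342). A share within a pool does not depend on the scaling of either table. Between classes the differences in share ran from -4.83 points, in CC from large to spontaneous (33.6 ± 8.86 against 28.8 ± 4.38%), to 2.995 points, in CC from small to large, and all 6 class comparisons had adjusted p of at least 0.744 in exact permutation tests. The 2 entries encode near-identical proteins and how reads that fit both were counted is not given in the sources used here, so the split between them is uncertain. This share was chosen after the values were seen, because the symbol H3F3B matched no entry.

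Over the 8 transcripts, few differences between follicle classifications were detected. Some intervals were wide, and those of H2AFZ in oocytes did not exclude a doubling. Of 42 class comparisons, 24 in oocytes and 18 in CC, the pools overlapped in 41, and 38 of the 95% confidence intervals held 0. Without overlap in either direction were 0.258, 0.903 and 0.913% of all transcripts in oocytes, from small to large, small to spontaneous and large to spontaneous, and 0.247, 1.16 and 0.865% in CC. None of the 8 was called in oocytes by limma, against 0.655, 0.774 and 0.943% of 10076 transcripts in the same order. At an unadjusted p under 0.05 limma gave 0, 1 and 0 in oocytes, the 1 being H1F0, against 4.11, 4.51 and 4.87% of all transcripts. In CC, limma called 0 from small to large (background 0.813%), 0 from small to spontaneous (background 2.38%) and 1 from large to spontaneous, H2AFZ, and gave 0, 1 and 2 at an unadjusted p under 0.05 (4, 8.55 and 7.07% of all). Both edgeR and DESeq2 on the recovered reads called 0 in all 6 comparisons. In none of them was an adjusted p of the 8 transcripts under 0.05, and over all transcripts 0, 0 and 0 passed in oocytes and 0, 3 and 1 in CC. The exact permutation p was under 0.05 in 6 of the 42 comparisons. In oocytes it was so for 0 of 8 from small to large and for H1F0 in each comparison with spontaneous pools, against 4.21, 4.78 and 4.99% of all transcripts. In CC it was so for 0 of 6, 1 (H2AFZ) and 3 (NASP, H2AFZ and H2AFV), against 4.28, 8.68 and 7.23% of all transcripts. The spontaneous class was higher in these 4 CC results, as it was, at any p, for 6983 and 6368 of 9712 transcripts against small and against large pools, and that lean of all transcripts moved with the scaling of the pools. These p-values measure the spread between pools of 4 complexes, and no other source of error.

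**Figure D4:**
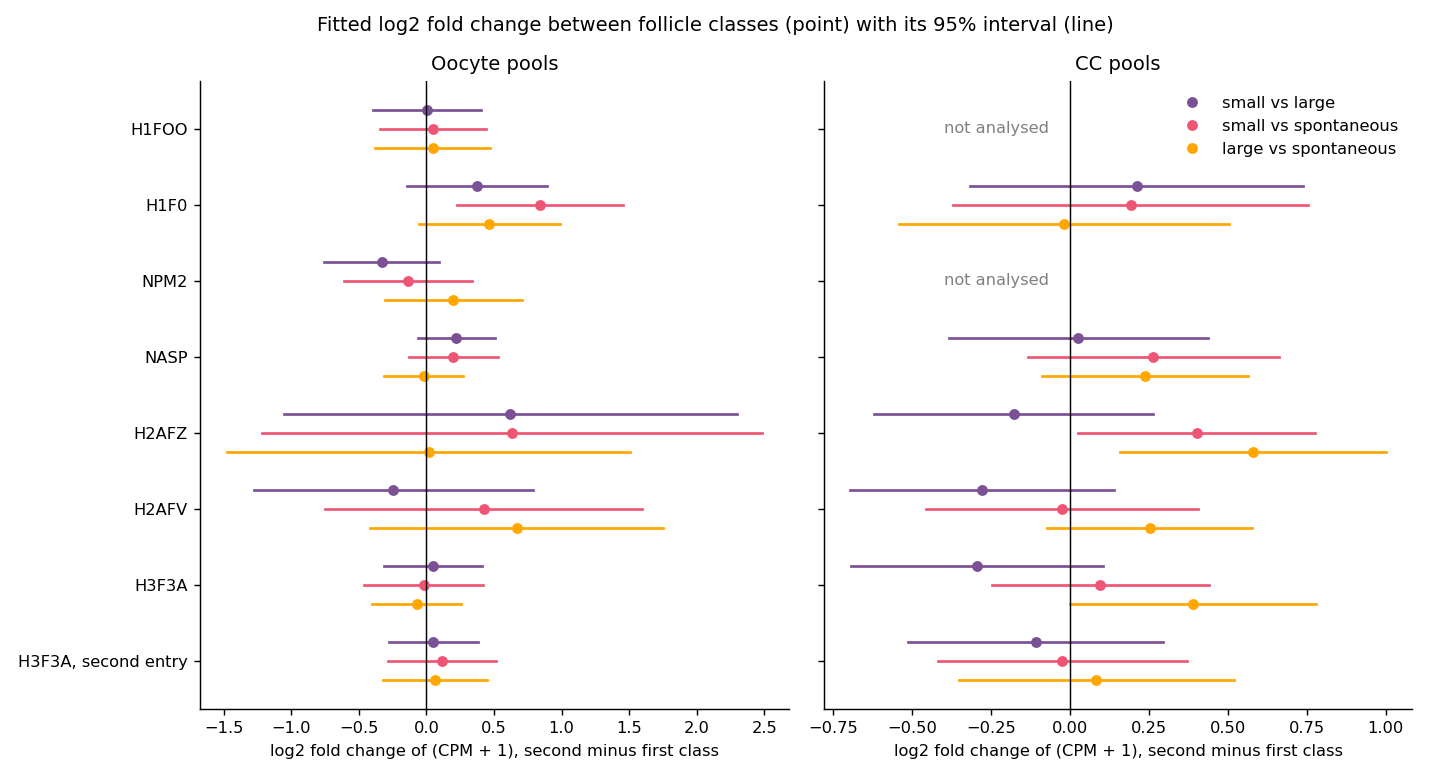
Log2 fold changes of each transcript on the log2(CPM + 1) scale with 95% confidence intervals from limma, in oocytes (left) and CC (right), for small to large, small to spontaneous and large to spontaneous. In 4 of 42 comparisons the interval leaves out 0: H1F0 in oocytes from small to spontaneous, and in CC H2AFZ in both comparisons with spontaneous and H3F3A from large to spontaneous, while H2AFZ in oocytes has the widest intervals.

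A wider list set these transcripts among the other genes of histone supply. It held 103 further entries, found for 79 of 90 symbols of linker histones, core histone variants, chaperones and chromatin assembly factors, H2A.Z exchange complexes, histone mRNA processing and DNA replication, and by the symbols of the canonical histone clusters. Of the 99 entries in both tables, 43 were higher in every oocyte pool, 5 in every CC pool and 51 overlapped. Over all 14980 transcripts, 17.5% were higher in every oocyte pool and 10.6% in every CC pool. The median log2 ratio of oocyte to CC level was 1.49 for the list against 0.00 for the 14980. Of the 103 entries 90 passed the filter in oocytes and 74 in CC, whereas the 14980 were not filtered. These backgrounds are therefore not of transcripts of like level.

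Linker histones other than H1FOO and H1F0 were higher in every oocyte pool for 4 of 5 entries, beside 17.5% of all transcripts. HIST1H1A had a median of 2608 CPM in oocytes and 1.98 CPM in CC, HIST1H1E 318 and 46.8 CPM, and HIST1H1C 156 and 37.7 CPM. The exception was H1FX, with a median listed at 0 in oocytes and 4.19 CPM in CC (1.35 to 5.56). Among core histone variants the DNA damage variant H2AFX was higher in every oocyte pool (167 against 8.20 CPM) and H2AFJ in every CC pool (median listed at 0 against 26.0 CPM), while macroH2A1 (H2AFY) had 13.7 against 58.7 CPM with overlap. The pattern of H2AFZ and H3F3A, higher in CC, was thus shared by 1 of 5 other variants without overlap, beside 10.6% of all transcripts.

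Of 27 chaperones and assembly factors, 13 were higher in every oocyte pool and 0 in every CC pool, beside 17.5% and 10.6% of all transcripts. NPM1, the somatic relative of NPM2, had a median of 1257 CPM in oocytes and 538 CPM in CC, the histone-binding RBBP7 890 and 92.2 CPM, and ATRX, which deposits H3.3 with DAXX, 552 and 291 CPM. The H3 and H4 chaperone ASF1B had 449 against 3.99 CPM, and ANP32E, which removes H2A.Z from chromatin, 340 against 52.1 CPM. HIRA, another H3.3 chaperone, had 3.50 and 4.17 CPM and overlapped. Like NASP, the chaperones with clear separation were higher in oocytes, with a median log2 ratio of 1.49 over the list.

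Of 17 entries of H2A.Z exchange 6 were higher in every oocyte pool and 0 in every CC pool, beside 17.5% and 10.6% of all transcripts. Both H2A.Z entries were lower in oocytes. VPS72, a subunit that binds H2A.Z, had a median of 117 CPM in oocytes and 24.5 CPM in CC, and the ATPase RUVBL2 had 228 and 23.4 CPM. The acetyltransferase subunit EPC1 had 243 against 51.6 CPM. The other 11 entries overlapped, among them the scaffold TRRAP at 290 against 148 CPM. MORF4L1 and the ATPase EP400 had the higher median in CC, at 148 against 250 CPM and 183 against 248 CPM, as had ZNHIT1 at 0.993 against 12.4 CPM, and these 3 overlapped too.

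The stem-loop binding protein SLBP, which binds the stem-loop that ends replication-dependent histone mRNA in place of a poly(A) tail, had 468 CPM in oocytes and 21.4 CPM in CC, and CASP8AP2 324 and 46.6 CPM. NPAT, which activates transcription of those histone genes, was instead higher in every CC pool, with 30.3 against 145 CPM. Of 14 DNA replication entries 9 were higher in every oocyte pool, beside 17.5% of all transcripts. Among the 9 were the clamp PCNA (287 against 24.0 CPM), the helicase subunit MCM6 (287 against 22.1 CPM) and thymidylate synthase TYMS (340 against 19.9 CPM). The median log2 ratio of the 14 replication entries, 3.49, was the highest of the lists. Of 21 canonical histone cluster entries 7 were higher in every oocyte pool and 2 in every CC pool, beside 17.5% and 10.6% of all transcripts. HIST1H2AC stood at 487 against 133 CPM and HIST2H2BE at 13.9 against 126 CPM.

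**Figure D5:**
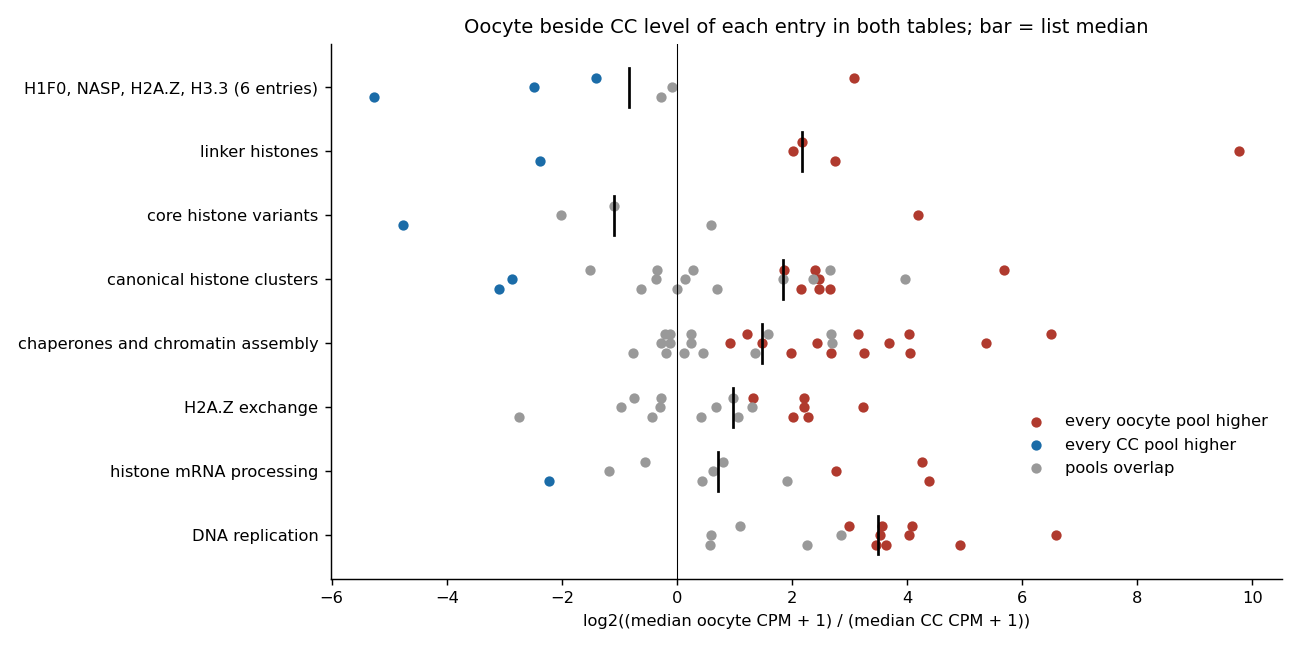
Log2 ratio of the median oocyte CPM to the median CC CPM, each with 1 added, for every entry of the 8 transcripts and of the wider lists found in both tables. Red marks entries higher in every oocyte pool, blue those higher in every CC pool, grey those that overlapped, and bars the list medians, which run from -1.10 for core histone variants to 3.49 for DNA replication.

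Between follicle classifications the wider list gave few calls. In oocytes limma called 1, 0 and 0 of 90 entries from small to large, small to spontaneous and large to spontaneous (background 0.655, 0.774 and 0.943%), and edgeR and DESeq2 called 0 in each. At an unadjusted p under 0.05 there were 4, 1 and 4, against 4.11, 4.51 and 4.87% of all transcripts, so neither count stood far from its background. The 1 call was NPM1, higher in large pools, at 1121 ± 174 CPM in small and 1391 ± 91.4 CPM in large oocyte pools (SD, n = 6 each, log2 fold change 0.32, SE 0.11, limma p = 0.00583, adjusted p = 0.997, exact permutation p = 0.00649). The pools overlapped, and the call was lost in edgeR (log2 fold change 0.28), in DESeq2 (0.28) and with median-of-ratios scaling (0.29). The other 3 at an unadjusted p under 0.05 from small to large were linker histones, of which 4 were tested, and all 4 had a log2 fold change above 0 (median 0.36, against 0.05 for all transcripts). Small and large oocyte pools had 2397 ± 246 and 2887 ± 490 CPM of HIST1H1A, 127 ± 33.2 and 177 ± 21.6 CPM of HIST1H1C, and 265 ± 67.1 and 358 ± 48.9 CPM of HIST1H1E (SD, n = 6 each, exact permutation p = 0.0433, 0.0108 and 0.0173). Their pools overlapped, 0 were called, and each adjusted p was 0.997. HIST1H1E passed the nominal threshold with all pools but not without small replicate 3 (limma p = 0.00906 and 0.0304, beside the exact permutation value).

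In CC limma called 1, 2 and 2 of 74 entries, against 0.813, 2.38 and 1.66% of all transcripts, which is near the background in each comparison. ANP32E was 39.6 ± 10.01 CPM in small, 68.6 ± 29.6 CPM in large and 68.8 ± 14.8 CPM in spontaneous CC pools (SD, n = 6, 6 and 5), with log2 fold changes of 0.73 to large (limma p = 0.00986, exact permutation p = 0.0130) and 0.80 to spontaneous (limma p = 0.00191, adjusted p = 0.308, exact permutation p = 0.00433). RUVBL1, an ATPase of the H2A.Z exchange complexes, was 8.23 ± 2.68 CPM in small and 15.3 ± 3.63 CPM in spontaneous pools (0.84, limma p = 0.00989, exact permutation p = 0.00649). From large to spontaneous, ASF1B rose at the nominal threshold from 1.80 ± 2.44 to 6.19 ± 2.15 CPM (1.67, limma p = 0.00436, exact permutation p = 0.0152) and VPS72 from 17.0 ± 4.80 to 29.0 ± 5.32 CPM (0.76, limma p = 0.00637, exact permutation p = 0.00216). ASF1B had a median of only 3.99 CPM over the CC pools (0 to 9.56), where counting error alone allows 0.52 to 1.57 CPM. As the filter asks for 5 CPM in 5 CC pools, it may have passed mainly through the spontaneous pools. Its call is therefore no support for a difference. VPS72 and the ribonucleotide reductase RRM1, at 93.3 ± 8.06 and 112 ± 8.73 CPM, were the 2 entries whose large and spontaneous pools did not overlap, as for 0.762% of all transcripts with spontaneous higher.

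These CC calls depended on how pools were scaled. Of all transcripts called in CC from small to spontaneous, 95.7% were higher in spontaneous in the CPM as deposited, 62.2% with median-of-ratios scaling and 54.3% without mitochondrially encoded genes, and the median log2 fold change of all transcripts moved from 0.16 to 0.01 and 0.00. From large to spontaneous the share was 87.6, 52.1 and 68.5%. From small to large, where it was 84.8, 63.4 and 41.8%, edgeR and DESeq2 called VPS72 lower in large pools (-0.88 in both, exact permutation p = 0.00433) and did not call ANP32E (0.70 in both). From small to spontaneous both called ING3, a subunit of the NuA4 acetyltransferase, lower in spontaneous pools (-0.77 in edgeR, -0.55 in limma, exact permutation p = 0.0541) and did not call ANP32E or RUVBL1 (0.63 and 0.77 in edgeR). ING3 was named after its values were seen. The 10 retained DNA replication entries had log2 fold changes above 0 toward spontaneous CC pools in both comparisons, which share the same 5 spontaneous pools, as had 6983 and 6368 of all 9712 transcripts. Their medians were 0.27 from small and 0.34 from large pools, against 0.16 and 0.11 for all transcripts. Limma called 0, and 1 and 0 had an unadjusted p under 0.05. From large to spontaneous DESeq2 called the ribonucleotide reductase subunit RRM2 (log2 fold change 1.32, against 0.91 in limma), which had 12.7 ± 5.95 and 33.5 ± 35.3 CPM in overlapping pools (exact permutation p = 0.110), and limma without a filter called RRM1 (0.27). RRM2 was named after its values were seen.

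The transcripts most like each of the 8 over the 16 oocyte pools were found by Pearson r of log2(CPM + 1), given as a description over pools that share class and depth. H1FOO was nearest to UBB (r = 0.82) and POLR3K (0.79), NPM2 to the zona pellucida gene ZP3 (0.81) and MRPL38 (0.79), and NASP to GATAD2A (0.86) and GOPC (0.84). H1F0 was nearest to DYNC1I2 (0.79) and SIRT6 (0.77), and H3F3A to PNPLA8 (0.80) and TCEB2 (0.79). H2AFZ was nearest to PLA2G16 (0.89) and the epithelial keratin KRT8 (0.84), and H2AFV to PIGK (0.83) and TCEAL8 (0.81). The second H3F3A entry was nearest to MON1B and STX2 (0.81 each). Among themselves the 8 transcripts had r from -0.46 for H1FOO and H2AFZ to 0.38 for H1FOO and NPM2. The partners named above were picked as the highest r for each transcript, whereas the pairs among the 8 were not picked by r. A higher r for the partners follows from that choice, so closeness cannot be compared between them and the pairs among the 8.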

How the data were processed

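Amplified cDNA from pools of 4 oocytes, or from the CC of 4 complexes, was sequenced from 1 end by the authors, who aligned the reads with Hisat2 to UMD3.1 and counted them with featureCounts on Ensembl genes. The deposited unit is CPM, in 1 table for 16 oocyte pools and 1 for 17 CC pools, scaled separately by the authors. Columns were matched to pools by name and 0 were left unmatched. Whole reads were recovered in 100% of values within 0.05 of a read. All pairs of libraries within a group differed by more than counting error (chi-square per degree of freedom of at least 13.4), so each was 1 replicate.

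The 8 transcripts and the lists were chosen with earlier results of these data known. The filter of 5 CPM in no fewer than 4 oocyte or 5 CC pools left 10076 and 9712 transcripts, which were tested between 2 classes with limma's moderated test with a trend on log2(CPM + 1), two-sided, fitted over all of them. The nominal threshold of the study, 0.01 or less, was applied to limma alone, because the deposited unit is CPM. The study asked for it in edgeR and in DESeq2 together, whose calls on recovered reads are given beside limma's. With small oocyte pools it had to hold without small replicate 3 too. Benjamini-Hochberg adjusted p-values are given beside it. Differences in mean CPM were tested by exact permutation, and correlations and the comparison of shares between cell types by 100000 resamples. Other settings were 0.1 as the pseudocount, a filter on a mean CPM of 1 or none, median-of-ratios scaling, removal of the 13 mitochondrially encoded genes, 1 fit over 3 classes, a replicate block, DESeq2 and edgeR's quasi-likelihood test on the recovered reads, and omission of each pool. The tests were tried on simulated data first. Named genes were the 8, those of the wider list past the threshold in a comparison, up to 3 of each list with the highest mean CPM, and the 2 most like each of the 8. HIRA, ING3, H1FX, RRM2, ZNHIT1 and the share of the second H3F3A entry were chosen after values were seen. No sequence or coordinates are given, since no UMD3.1 sequence was used here. Python 3.11.15, pandas 2.3.3, numpy 2.4.6, scipy 1.17.1, matplotlib 3.10.9, R 4.3.3 and its packages DESeq2 1.42.0, edgeR 4.0.16 and limma 3.58.1 were used.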

Additional observations from a re-analysis of the deposited data

Results flagged for a closer look

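In 4 of 42 groups of pools, 1 transcript in 1 class of 1 cell type each, 1 pool lay far from the others by Dixon's criterion, where chance gives about 1 in 20. H2AFZ was 82.1 CPM in small oocyte replicate 3, against 11.6 CPM in the nearest small pool. NASP was 101.1 CPM in small CC replicate 4, against 65.9 CPM in the nearest. H2AFV was 166.4 CPM in small CC replicate 3, the CC pool of fewest reads, against 95.1 CPM. The second H3F3A entry was 414.3 CPM in spontaneous oocyte replicate 3, against 266 CPM.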

How the results depend on the processing

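Of 838 fold changes of the 8 transcripts under alternatives, 80 were under the threshold in both settings and opposite in sign. With each pool left out in turn, the calls among the 8 were 0 to 1 from large to spontaneous CC. They were 0 there with a pseudocount of 0.1, without a filter, with median-of-ratios scaling, without mitochondrially encoded genes, in edgeR and in DESeq2, and in oocytes without a filter 1 (H1F0) was called from small to spontaneous. Leaving out large replicate 3, 4, 5 or 6 or spontaneous replicate 1, 2, 4 or 5 ended the H2AFZ call. In the wider list, the call in oocytes from small to large became 0 without a filter, with median-of-ratios scaling, in edgeR and in DESeq2, and 0 to 2 with a pool left out. From large to spontaneous it was 1 with 3 classes in a fit and with the replicate block, and 0 to 1 with a pool left out. In CC from small to large it was 3 with 3 classes in a fit and 0 to 2 with a pool left out. From small to spontaneous it was 1 with a pseudocount of 0.1, median-of-ratios scaling, no mitochondrially encoded genes, a mean CPM minimum of 1, 3 classes in a fit, edgeR and DESeq2, 0 with the replicate block, and at least 1 with a pool left out. From large to spontaneous it was 1 with a pseudocount of 0.1, median-of-ratios scaling and DESeq2, 5 without a filter, 4 with a mean CPM minimum of 1, 0 with the replicate block and edgeR, and 0 to 4 with a pool left out. Where calls changed, the cause was not tested.

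Same-numbered pools of 2 classes correlated at -0.19 to 0.22 in their deviations from class means, so no clear pairing by number was seen. Correlations over all transcripts cannot settle whether the numbers mark anything shared. With the replicate block the H1FOO share from small to spontaneous differed by -7.23 points (exact permutation, adjusted p = 0.188), a design of 4 pairs that cannot pass the threshold, and the block changed no call among the 8 transcripts. From large to spontaneous that share differed by -6.18 to -2.52 points with a pool left out, and the former, without large replicate 6, passed (adjusted p = 0.0476). The relation of H2AFZ with cumulus markers was r = 0.69 without the 2 farthest pools (adjusted p = 0.0896).

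Over all transcripts, oocyte calls of 66, 78 and 95 became 113, 121 and 181 in DESeq2, 100 without a filter from small to large and 148 from large to spontaneous, and 43 with the replicate block from small to spontaneous. CC calls of 79 became 121 without a filter and 137 with 3 classes in a fit, and 231 became 127 with median-of-ratios scaling, 127 without mitochondrially encoded genes and 128 in edgeR. Leaving out spontaneous replicate 3 moved the oocyte count from small to spontaneous to 49, and leaving out spontaneous replicate 2 that from large to spontaneous to 145. Without small replicate 3 the count from small to spontaneous was 130. There the second requirement falls away, and the like count with all pools is 95. In CC, the count of 79 became 52 without small replicate 5, that of 231 became 141 without spontaneous replicate 5, and that of 161 became 88 or 99 without spontaneous replicate 4 or 5. CC pools had fewer reads, which limits what can be seen of transcripts of a few CPM there.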

Other observations

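Beside the wider list, 35 entries were described as core histones without a cluster symbol, a list added after the values were seen. Of the 32 in both tables, 6 were higher in every oocyte pool, 0 in every CC pool and 26 overlapped, with a median log2 ratio of 0.63. The first count is near the 17.5% of all transcripts higher in every oocyte pool, and 10.6% were higher in every CC pool. In oocytes 15 of them passed the filter and in CC 1, and limma called 0 in each of the 6 class comparisons, with 1 at an unadjusted p under 0.05, from small to spontaneous oocyte pools.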
